A study of Mus musculus with 2 samples.

Results

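Prox1, Dock10, Maml2, Sema5a, Calb1 and Bcl11b are 6 genes that mark dentate granule neurons or act in them. They were described here by DNA methylation in 6 fixed windows of the mm9 genome, chosen by gene name with earlier results of these data known. The windows were chr1:191940000-191996000 for Prox1, chr1:80497000-80756000 for Dock10, chr9:13100000-13510000 for Maml2, chr15:32175000-32627000 for Sema5a, chr4:15808000-15834000 for Calb1 and chr12:109150000-109245000 for Bcl11b. They held 14157 of the 27374390 nuclear cytosines listed with at most 100 reads in 1 library. The 500 kb on either side of each window, its flanks, held 67423. The DNA came from the dentate gyrus of adult male C57Black6 mice aged 8 to 10 weeks, labelled WT (wild type), with no treatment named, and was read by whole-genome bisulfite sequencing. In this assay a methylated cytosine is still read as cytosine while an unmethylated one is read as thymine, and methylcytosine cannot be told from hydroxymethylcytosine. The labels do not say how many mice gave each library, and with no RNA measured the tissue could not be checked against expressed markers. There were 2 libraries, called replicates 1 and 2, of which replicate 2 is described here because replicate 1 listed only 94 cytosines in the windows. With 1 library there is no replicate error and no test between conditions.

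As background, the granule neuron is the principal cell of the dentate gyrus and sends mossy fibres to CA3. Methylation at CpG (a cytosine followed by guanine) is high over most of the mammalian genome and low at many active promoters and enhancers, and broad low-CpG domains over genes of developmental transcription factors are known in many tissues. Neurons also carry methylation outside CpG, at CHG and CHH (H is A, C or T, and both together are called CpH), laid down mainly by Dnmt3a. Prox1 is a homeobox factor that sets granule neuron fate, and Bcl11b (Ctip2) is a zinc finger transcription factor of several neuron types. Maml2 is a mastermind-like coactivator of Notch. Dock10 is a member of the dedicator of cytokinesis family, Sema5a a semaphorin with roles in axon guidance and synapses, and Calb1 encodes the calcium buffer calbindin. Dissected tissue also holds interneurons, glia and other cells, so a level of 30% can mean 30% of cells or a share of alleles, and these cannot be told apart here.

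Promoter sequences of the genes were sought among the listed cytosines. RefSeq (GRCm38.p6) gave 8 promoter sequences of 300 bases for 5 of the 6 genes, all but Calb1. No coordinate was carried over. A sequence was placed only where the cytosines listed in the mm9 window fell on its cytosines in the right context, with at least 6 listed sites, none in conflict, and at most 50% as many at the next best position. A second promoter of Prox1 was placed at chr1:191993344-191993643 with 6 of 6 listed sites in agreement against 3 at the next best position in the window. The search covered the gene's window only, and the match was not unique over the whole chromosome. A second promoter of Dock10 was placed at chr1:80661877-80662176 with 8 of 8 against 3. The other 6 promoter sequences did not meet these conditions, with 2 to 5 listed sites in agreement at their best positions. Whether few sites were listed there, or the promoter lay outside the window, is not known. The Maml2 window, of 410 kb, is shorter than the RefSeq gene, of 413 kb. Both are written below as the top strand of the genome, opposite to the genes, with the listed cytosines in capitals. They are shown because they are the promoters of the 6 genes whose cytosines could be read base by base.
Prox1: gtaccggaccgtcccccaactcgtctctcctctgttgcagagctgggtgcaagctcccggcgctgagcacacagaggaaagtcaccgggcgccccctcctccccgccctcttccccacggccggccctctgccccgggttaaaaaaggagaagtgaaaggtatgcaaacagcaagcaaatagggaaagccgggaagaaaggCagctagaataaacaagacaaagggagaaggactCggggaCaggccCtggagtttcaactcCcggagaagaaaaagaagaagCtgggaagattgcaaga
Dock10: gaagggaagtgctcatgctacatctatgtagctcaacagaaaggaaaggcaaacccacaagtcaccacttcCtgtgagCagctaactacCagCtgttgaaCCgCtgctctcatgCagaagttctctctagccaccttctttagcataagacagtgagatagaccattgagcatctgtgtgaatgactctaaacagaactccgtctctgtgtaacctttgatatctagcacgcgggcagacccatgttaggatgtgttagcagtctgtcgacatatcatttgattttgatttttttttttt

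The placed Prox1 promoter had no methylated read. Its 1 listed CpG, at position 191993579 of chromosome 1, had 0 methylated of 23 reads, which allows a level of up to 13.0% (3 counts of the total). The 5 CHG cytosines were at 0 of 20 to 25 reads each. The placed Dock10 promoter differed: its 1 listed CpG, at position 80661978, was methylated in 15 of 20 reads (75%, exact 95% interval 50.9% to 91.3%). Of its 7 CHG cytosines 6 had no methylated read and 1 had 1 of 20. The Prox1 sequence holds 14 CpG and the Dock10 sequence 5, against a median of 7 in the 32851 promoters of the table, so each level rests on a small part of the promoter. Of all promoters, 63.7% had fewer CpG than that of Prox1 and 38.0% fewer than that of Dock10. The first promoter sequences of these genes, with 25 CpG in Prox1 and 32 in Dock10, were not placed, so their methylation is not known here.

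All 6 gene windows had a lower CpG level than the flanks, by very different amounts (levels are methylated reads over all reads of the listed sites, and brackets give exact 95% intervals that cover counting error only). The Prox1 window was at 30.5% (28.8% to 32.3%, 119 sites, 2809 reads), against 75.4% in the flank of lower coordinates and 76.3% in the higher one. The Bcl11b window was at 41.4% (39.6% to 43.1%, 133 sites), against 80.1% and 74.2%. These transcription factor genes stood far below both of their flanks and below the other 4 genes. Calb1 was at 67.3% (64.2% to 70.3%, 39 sites) with its flanks together at 79.9%. Sema5a was at 71.4% (70.6% to 72.1%, 625 sites) with flanks at 77.8% and 84.9%. Maml2 was at 74.7% (73.9% to 75.5%, 436 sites) with flanks at 82.3% and 79.6%. Dock10, at 77.0% (76.1% to 78.0%, 304 sites), was nearest to its flanks, which were at 78.2% and 79.7%. Window minus flanks was -45.3 percentage points for Prox1 (Newcombe 95% interval -47.1 to -43.5), -36.2 for Bcl11b (-38.0 to -34.4), -12.6 for Calb1 (-15.7 to -9.64), -9.21 for Sema5a (-10.1 to -8.34), -6.08 for Maml2 (-7.04 to -5.13) and -1.85 for Dock10 (-2.93 to -0.787). At sites of 30 reads or more the difference had the other sign in Dock10 (4.11 points, 32 sites), was smaller in Maml2 (-1.60) and Sema5a (-3.40) and larger in Calb1 (-36.4, 3 sites). Each step in the order of the 6 levels exceeded counting error, the smallest being Maml2 to Dock10 (2.33 points, 1.06 to 3.59).

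**Figure D1:**
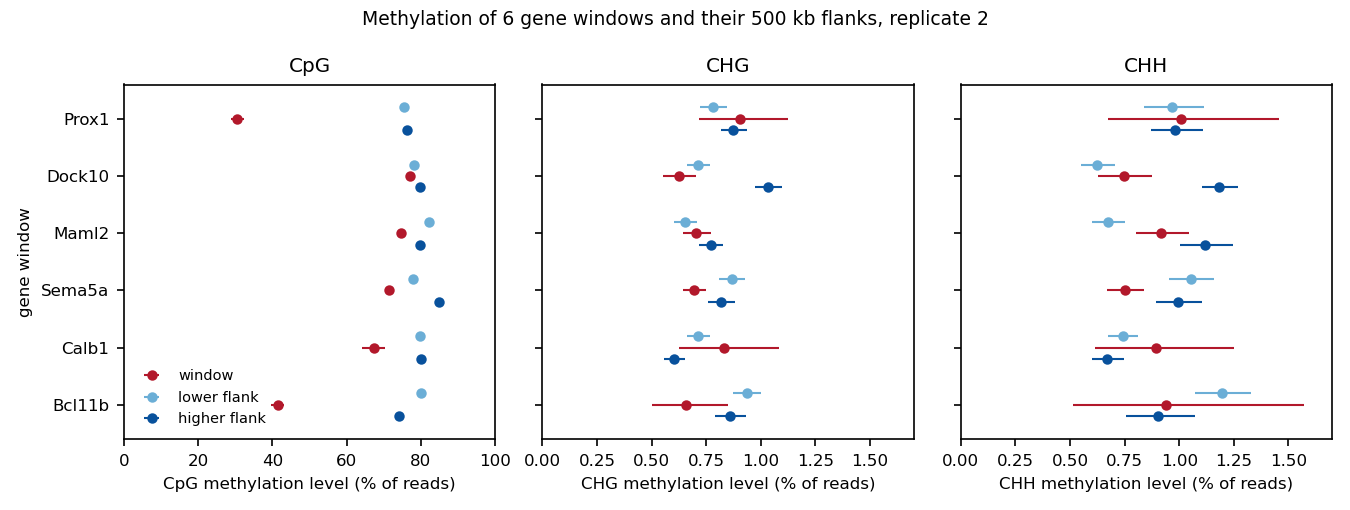
Methylation level (percent of reads) of the 6 gene windows (red) and of the flank on the side of lower (light blue) and higher (dark blue) coordinates, in CpG, CHG and CHH, with bars for exact 95% intervals. The CpG points of Prox1 (30.5%) and Bcl11b (41.4%) lie far left of their flanks, while CHG and CHH points lie between 0.605% and 1.19%.

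The spread between stretches of the same genome puts these differences in scale. Cut into tiles of the window's length, the Prox1 flanks gave 16 tiles between 60.8% and 86.5%, all above the window. The Bcl11b flanks gave 10 tiles between 67.9% and 83.8%, also all above it. For Calb1, 3 of 38 flank tiles were below the window and the lowest was at 52%, so a difference of that size occurs among its neighbours. Over all autosomes, 20 of 41393 tiles of 56 kb (0.0483%) had a lower CpG level than Prox1, and 27 of 24930 tiles of 95 kb (0.108%) a lower one than Bcl11b. The share of tiles below the window was 5.38% for Sema5a, 9.67% for Calb1, 15.1% for Maml2 and 28.0% for Dock10. For Dock10 1 of 2 flank tiles was lower as well. At sites of 30 reads or more the shares were 33.5% for Sema5a, 36.6% for Maml2 and 51.1% for Dock10, and with tiles shifted by 50% of their length that of Prox1 was 0.0749%.

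Single CpG sites show how the windows came to these levels. Of 119 listed CpG in Prox1, 65 (54.6%, 45.2% to 63.8%) were methylated in at most 30% of reads, against 7.65% of all nuclear CpG sites and 10.2% in the Prox1 flanks. Only 10 sites (8.40%) were at 70% or more, against 76.6% over the autosomes. A further 44 sites (37.0%) lay in between, a class that held 15.8% of autosomal sites. Most low sites of Prox1 still had some methylated reads, since 12 sites were at 0 and the median site was at 27.3%. In Bcl11b 60 of 133 sites (45.1%) were at most 30% methylated, 37 lay in between and 36 (27.1%) were at 70% or more. Bcl11b thus held more sites of 70% or more than Prox1, and its median site was at 33.3%. Sites at most 30% methylated made up 13.8% of 625 in Sema5a, 12.8% of 39 in Calb1 (4.30% to 27.4%), 10.3% of 436 in Maml2 and 7.57% of 304 in Dock10. In Sema5a and Maml2 these shares were above those of their flanks, 5.94% and 5.09%, while Dock10 was level with its flanks at 7.62%.

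**Figure D2:**
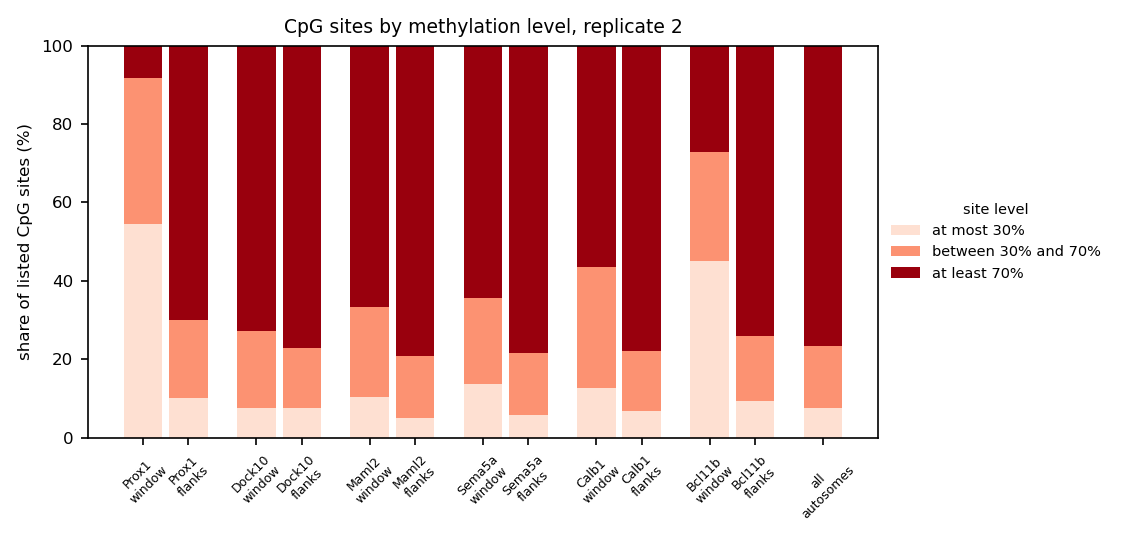
Share of listed CpG sites (percent) that were methylated in at most 30%, between 30% and 70%, or at least 70% of reads, for each gene window, its flanks and all autosomes. Sites of at most 30% make up 54.6% in Prox1 and 45.1% in Bcl11b, against 7.57% to 13.8% in the other windows.

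The low CpG of Prox1 filled the window from end to end. In 10 kb bins its CpG level was 47.0%, 34.6%, 27.5%, 27.6% and 27.9%, and 10.4% (6.91% to 14.9%) in the last 6 kb. All 6 bins were under 50%, against 5 of 100 bins in the flanks. The 10 kb next to the window were at 89.1% on the lower side and 58.7% on the higher side. RefSeq gives Prox1 on the minus strand, so the lowest bin is at the 5′ end of the gene. The second promoter was placed in that bin, and its 1 listed CpG had 0 of 23 reads methylated. In Bcl11b, also on the minus strand, 5 of 8 bins with at least 5 CpG were under 50%. The bins from 0 to 20 kb were at 67.8% and 67.2%, that at 60 kb was the lowest with 15.9% (12.7% to 19.6%), that at 70 kb was at 67.1% again and that at 80 kb at 25.4%. Its low CpG was thus broken by a methylated part.

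**Figure D3:**
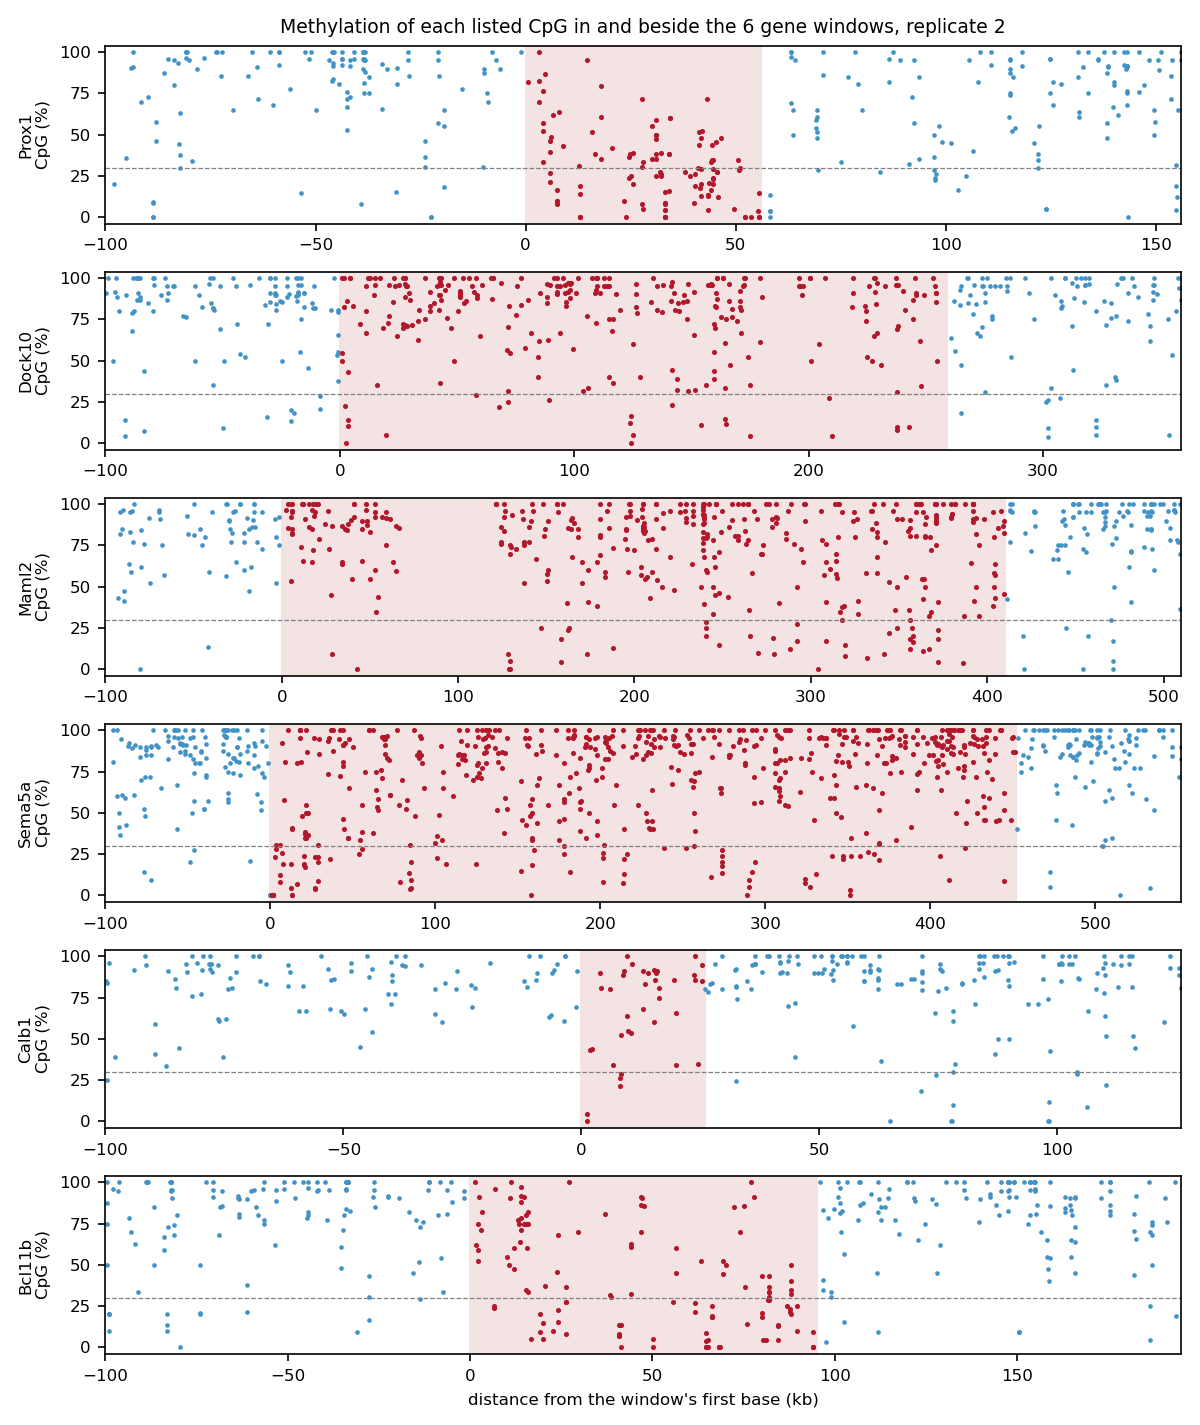
Methylation (percent of reads) of each listed CpG against the distance from the window's first base (kb), for the 6 windows (red, shaded) and 100 kb on either side (blue), with a dashed line at 30%. In Prox1 the low sites fill the window, in Bcl11b they are interrupted, and in Dock10 and Maml2 most sites lie near the top.

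In the long genes low CpG was local. Sema5a, a plus-strand gene, had its lowest bin at the 5′ end: the first 10 kb were at 24.0% (20.1% to 28.2%), the next bins at 53.3% and 41.0%, and that at 30 kb at 83.8%. Across its 45 bins the level ran from 24.0% to 89.7% with a median of 75.2%, and 5 bins were under 50%. Calb1 likewise rose along its window, from 53.2% (48.1% to 58.3%) in the first 10 kb to 75.8% and 82.1%. In Maml2 1 of 36 bins was under 50%, with 47.3% (39.0% to 55.7%) at 170 kb, and in Dock10 none of 24 was, the lowest being 52.4% (46.0% to 58.7%) at 120 kb. In Maml2 no cytosine of any context was listed between 67.4 and 119.9 kb, so that part was not measured.

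Low-CpG stretches were defined as at least 3 consecutive listed CpG, each at most 30% methylated and at most 1000 bases from the next. The 6 windows held 30 such stretches with 131 of 1656 CpG sites (7.91%), against 3.13% of all nuclear CpG sites. They were unevenly shared, with 9 in Bcl11b, 8 in Prox1, 8 in Sema5a, 4 in Maml2, 1 in Dock10 and 0 in Calb1. Stretches took 32.8% of the CpG sites of Prox1 and 31.6% of those of Bcl11b, against 4.36% and 3.77% in their flanks. In Sema5a they took 4.96% and in Maml2 3.67%, against 1.60% and 1.10% in the flanks. Dock10 went the other way, with 0.987% in the window and 3.89% in the flanks. In Calb1 0 of 39 sites lay in a stretch, against 2.02% in the flanks, and 39 sites are too few to show a lower share.

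In Prox1 the longest stretch was chr1:191972190-191973205, where 11 CpG had 23 methylated of 256 reads (8.98%, 5.78% to 13.2%) and single sites ranged from 0 to 26.1%. The stretch nearest to the 5′ end, chr1:191995405-191995484, was at 4.76% over 4 sites. In Bcl11b the longest was chr12:109214598-109216368, with 10 CpG at 9.96% (6.49% to 14.5%). Close to it, chr12:109218333-109218430 had 4 CpG with 0 of 90 reads methylated, which allows up to 3.33%. Within 1 kb of the window end on its 5′ side, chr12:109244062-109244146 was at 2.25% over 4 sites. In Sema5a the longest, chr15:32176091-32176773, began 1.09 kb into the window. Each of its 7 CpG had no methylated read, 0 of 156 reads in all, which allows up to 1.92%. The other stretches of Sema5a were at 5.88% to 20.6%. The longest of Maml2, chr9:13456284-13457769, had 6 CpG at 20.5% (14.6% to 27.4%) and lay 356 kb into the window. A shorter one at chr9:13228271-13229287 was at 3.45% over 4 sites. The only one of Dock10, chr1:80620972-80621158, had 3 CpG at 10.3% (4.24% to 20.1%). The stretch nearest the 5′ end thus had the lowest level of its gene in Prox1 and Sema5a. In Prox1 its interval, 1.56% to 10.8%, overlapped that of the next lowest stretch, 3.64% to 13.3%. In Sema5a the intervals overlapped as well, 0 to 2.34% against 1.94% to 13.2%. In Bcl11b the stretch nearest the 5′ end and the inner stretch at 0 were the lowest pair. Maml2, a plus-strand gene, also had its lowest stretch nearest the window start, but 128 kb in.

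Outside CpG, the 6 windows differed much less from their surroundings, and in both directions. The background of failed conversion, read from mitochondrial CpH, was 0.368%, and the autosomal levels were 0.784% for CHG and 0.889% for CHH. Every window was above that background in both contexts. By CHG level the order was Dock10 at 0.624% (0.554% to 0.702%, 1901 sites), Bcl11b at 0.659% (0.504% to 0.848%, 399 sites), Sema5a at 0.696% (0.644% to 0.751%, 3914 sites), Maml2 at 0.704% (0.643% to 0.771%, 2809 sites), Calb1 at 0.833% (0.628% to 1.08%, 277 sites) and Prox1 at 0.904% (0.719% to 1.12%, 382 sites). No neighbours in this order differed beyond counting error, but its ends, Prox1 and Dock10, did, by 0.280 points (0.0878 to 0.509). These ends were picked by the same values, which the interval does not allow for. The gene with the lowest CpG thus had the highest CHG of the 6, and the gene with the highest CpG the lowest CHG. Over 6 genes that is a description only.

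Against both flanks together, CHG was lower in 3 windows, with a difference of -0.258 points in Dock10 (-0.338 to -0.172), -0.243 in Bcl11b (-0.398 to -0.0494) and -0.149 in Sema5a (-0.216 to -0.0805). Each of these 3 windows was also below each of its flanks taken alone. The Dock10 flanks differed from each other, 0.714% and 1.03%, and the window lay near the lower one. Of the 10 flank tiles of Bcl11b 9 were above the window, of the 2 of Sema5a both were, and of the 2 of Dock10 1 was. At sites of 30 reads or more the difference was -0.00926 points in Sema5a (364 sites) and -0.548 in Dock10, and against the lower flank alone it was -0.0896 in Dock10. For Maml2 the difference was -0.00839 points (-0.0801 to 0.0671), for Prox1 0.0737 (-0.108 to 0.296) and for Calb1 0.173 (-0.0223 to 0.425), each with an interval across 0. In the flanks of Calb1 8 of 38 tiles were above the window, and in those of Prox1 6 of 16. Among autosomal tiles of the same length, 23.9% (Dock10) to 73.8% (Prox1) had a lower CHG level. At sites of 30 reads or more that share was 7.36% for Dock10 (146 sites), 98.7% for Calb1 (27 sites) and 95.8% for Prox1 (25 sites). The tiles needed 100 such sites, which the Calb1 and Prox1 windows did not hold. Their 2 shares thus compare unlike sets and do not place these windows.

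**Figure D4:**
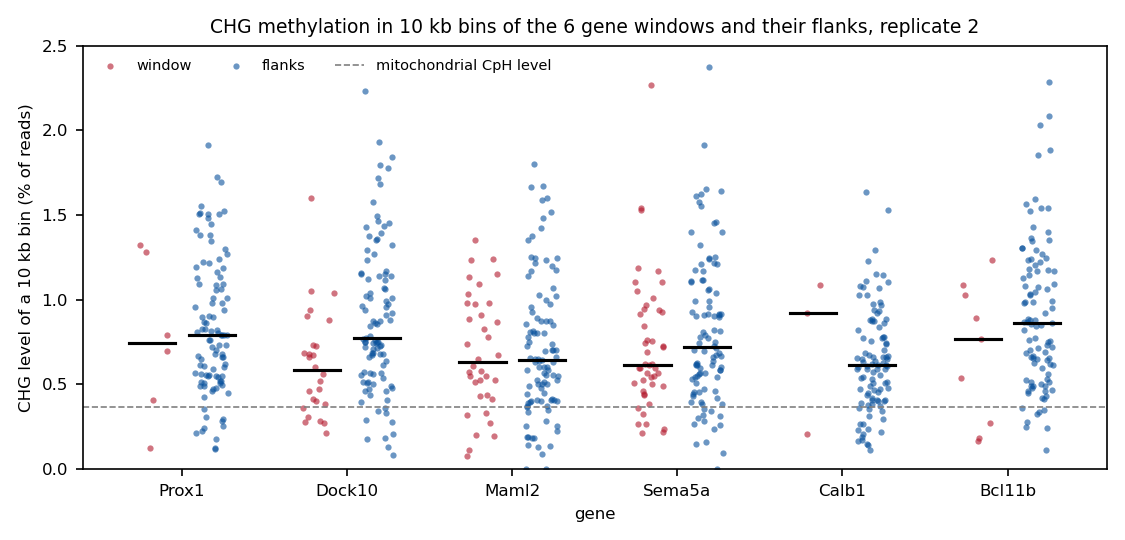
CHG level (percent of reads) of 10 kb bins with at least 20 CHG sites, in the windows (red) and flanks (blue) of the 6 genes, with black lines for the medians and a dashed line for the mitochondrial CpH level. Window and flank bins overlap in every gene, and the window median is below the flank median except in Calb1, which has 3 bins.

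Within genes CHG varied between 10 kb bins. In Prox1 the bins were at 0.407%, 0.695%, 1.32%, 0.792% and 1.28%, and 0.124% (0.00315% to 0.690%) in the last 6 kb, the part with the lowest CpG. In Sema5a the first 10 kb, lowest in CpG, were at 0.267% (0.0867% to 0.622%), and the short last bin of 2 kb was the highest with 2.27% (1.18% to 3.93%, 23 sites). In Bcl11b the lowest bin, 0.166% (0.0201% to 0.598%), was at 20 kb and the highest, 1.24% (0.499% to 2.53%), at its start. Dock10 ran from 0.211% (0.0436% to 0.616%) at 70 kb to 1.60% (1.02% to 2.40%) at 240 kb. Maml2 ran from 0.0779% (0.00197% to 0.433%) at 250 kb to 1.35% (0.816% to 2.10%) at 180 kb. In Calb1 the bins were at 0.919%, 1.08% and 0.207% (0.0428% to 0.605%). The SD between bins was 0.316 to 0.473 points in the windows and 0.307 to 0.438 in the flanks. It was smaller in the window than in the flanks in Dock10, Maml2, Sema5a and Bcl11b. Only in Prox1 (6 bins) and Calb1 (3 bins) was it larger.

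CHH, listed from 30 reads, rested on fewer sites. The level was 0.746% in Dock10 (0.630% to 0.877%, 584 sites), 0.750% in Sema5a (0.670% to 0.837%, 1275 sites), 0.892% in Calb1 (0.615% to 1.25%, 113 sites), 0.916% in Maml2 (0.8004% to 1.04%, 716 sites), 0.940% in Bcl11b (0.515% to 1.57%, 46 sites) and 1.01% in Prox1 (0.672% to 1.46%, 85 sites). Dock10 and Prox1 were again the ends of the order, but the interval of their difference included 0 (0.264 points, -0.0730 to 0.723). Window minus flanks was -0.275 points in Sema5a (-0.384 to -0.163) and -0.222 in Dock10 (-0.348 to -0.0790), as for CHG. Sema5a was below both flanks, at 1.05% and 0.996%, whereas Dock10 lay between 0.625% and 1.18%, and against the lower flank alone its difference turned to 0.121. The other 4 differences had intervals across 0, from -0.156 (-0.549 to 0.483) in Bcl11b to 0.181 (-0.0805 to 0.542) in Calb1.

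CHG near low CpG was higher in Prox1 than in Bcl11b. Over the whole windows the difference in CHG was 0.245 points, with an interval that included 0 (-0.0129 to 0.508). CHG cytosines within 500 bases of a CpG of at most 30%, and not of one of at least 70%, were at 0.994% in Prox1 (0.752% to 1.29%, 56 of 5634 reads) and at 0.412% in Bcl11b (0.236% to 0.668%, 16 of 3883 reads). Near low CpG the difference was 0.582 points (0.239 to 0.916). Over all autosomes such CHG sites were at 0.573%, and those near CpG of at least 70% at 0.817%. Prox1 was above the autosomal value by 0.421 points (0.193 to 0.715), while for Bcl11b the interval included 0 (-0.161 points, -0.320 to 0.0951). Within Bcl11b, CHG near high CpG was at 1.05% (0.733% to 1.46%), and low minus high was -0.639 points (-1.08 to -0.249). In Sema5a the same difference was -0.223 (-0.372 to -0.0370) and in Maml2 -0.269 (-0.453 to -0.0233), in the direction of the autosomes (-0.243). Prox1 had few CHG sites near high CpG (30), and there the difference was 0.112 with an interval across 0 (-0.942 to 0.672). The pair was compared after the values were seen, because these were the windows with CpG below 50%, and the intervals take reads as independent. The levels near low CpG for CHH were 1.11% in Prox1 and 0.409% in Bcl11b, with an interval of the difference across 0 (0.699 points, -0.158 to 1.26).

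Single CpH cytosines above the rate of failed conversion were found in every window, at shares near those of the genome. By an exact binomial test against the mitochondrial rate (adjusted p at most 0.01), 125 of 9682 CHG sites were called (1.29%), against 1.46% of all nuclear CHG sites. For CHH 69 of 2819 were called (2.45%), against 2.75%. The share of CHG sites called was 2.17% in Calb1 (6 sites), 2.09% in Prox1 (8), 1.53% in Sema5a (60), 0.999% in Dock10 (19) and 0.997% in Maml2 (28), and in Bcl11b 4 of 399 were called. The Dock10 share had an exact interval from 0.603% to 1.56%, which included the genome share of 1.46% but not that of its flanks, 1.6995%. For Maml2 the interval, 0.663% to 1.44%, included the share of its flanks, 1.27%, and ended just below that of the genome. In the other genes the interval included both. The share of CHH sites called was 3.53% in Prox1 (3 sites), 3.35% in Maml2 (24), 2.65% in Calb1 (3), 2.20% in Sema5a (28) and 1.71% in Dock10 (10). In Bcl11b 1 of 46 was called. Each of these shares had an exact interval that included the 2.75% of all nuclear CHH sites. The lowest level among called sites was 11.1% for CHG and 8.82% for CHH, and weaker methylation of a single cytosine was not detectable at these depths.

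The strongest site of each gene and context, by the lowest p, was partly methylated. In Prox1 the CHG at position 191964732 of chromosome 1 had 8 of 24 reads methylated (33.3%, exact binomial test, adjusted p = 3.03e-11), and the strongest CHH, at 191945861, 6 of 42 reads (14.3%, adjusted p = 1.32e-06). In Dock10 the CHH at position 80575947 had 12 of 37 (32.4%, exact binomial test, adjusted p = 8.26e-18) and the CHG at 80523266 had 6 of 20 (30%, adjusted p = 5.66e-08). The highest level of any called site in the windows was at a CHH in Maml2, at position 13495286 of chromosome 9, with 16 of 31 reads (51.6%, 33.1% to 69.8%, exact binomial test, adjusted p = 7.60e-28). The strongest CHG of Maml2, at 13419081, had 6 of 22 reads (27.3%). In Sema5a the CHG at position 32624572 of chromosome 15 had 8 of 26 reads (30.8%, exact binomial test, adjusted p = 5.88e-11) and the strongest CHH, at 32607498, had 7 of 37 (18.9%). In Calb1 the strongest CHG, at 15818901 of chromosome 4, had 5 of 23 reads (21.7%), and the strongest CHH, at 15830722, 4 of 32 (12.5%). In Bcl11b they were at 109151083 of chromosome 12, with 4 of 20 reads (20%), and at 109163923, with 4 of 31 (12.9%). The strongest CHG of Bcl11b thus lay in the first 10 kb, where its CpG was at 67.8%.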

How the data were processed

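Bisulfite reads of dentate gyrus DNA were handled with Bismark 0.7.5 on build mm9, per the submitters' processing notes. How reads were trimmed or duplicates treated is not stated there. For each library and context the authors deposited counts per cytosine of 1 strand class (methylated, unmethylated and total reads), and the percent of methylated reads, in tables without a header. In replicate 2 the lowest depth was 20 reads for CpG and CHG and 30 for CHH, and the median 23, 23 and 32. The levels were computed from the deposited counts at sites of at most 100 reads. The levels have exact Clopper-Pearson intervals, and the differences Newcombe's. The library was amplified by PCR and reads carry no molecular identifiers, so they need not be independent molecules, and intervals and limits cover counting error only. Site calls used a one-sided exact binomial test with Benjamini-Hochberg adjustment within context over all nuclear sites, which was tested on simulated data, as was the search for stretches. Autosomal tiles needed 30 CpG or 100 CpH sites, and flank tiles 10 sites of the context. Within each gene the text names the longest stretch, the called CHG and CHH site with the lowest p and the extreme 10 kb bins. Further stretches, bins of CpG, promoter placement and the comparison near low CpG were chosen after the values were seen. The genes and windows were chosen with earlier results of these data known. Other genes were not analysed here, since no mm9 annotation was used. Python 3.11.15, numpy 2.4.6, scipy 1.17.1 and matplotlib 3.10.9 were used.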

Additional observations from a re-analysis of the deposited data

How the results depend on the processing

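All sites rest on 1 library, so no library could be left out. No paired analysis was possible because both libraries form 1 group. Few window CpG had 30 reads or more (8 in Prox1, 3 in Calb1, 9 in Bcl11b, 32 in Dock10, 46 in Maml2, 69 in Sema5a), which limits that setting. Of 48 CpG differences from the flanks under other settings 27 stayed within the main interval, 20 left it and 1 turned, of 42 for CHG 33 stayed and 9 left it, and of 42 for CHH 36 stayed, 5 left it and 1 turned. Here turned is said only of a difference whose main interval excluded 0. The Maml2 CHH difference, whose interval included 0 (main value 0.0671), also took both signs outside that interval. Why they moved was not tested. With at least 30 reads the CpG difference was -53.6 points (Prox1), 4.11 (Dock10, turned), -1.60 (Maml2), -3.40 (Sema5a), -36.4 (Calb1) and -24.7 (Bcl11b), and that of CHG 0.803 (Prox1), -0.548 (Dock10), -0.188 (Maml2), -0.00926 (Sema5a) and 0.5999 (Calb1). With 1 Mb flanks CpG was -47.4 (Prox1), -7.09 (Maml2) and -7.29 (Sema5a), CHG -0.154 (Dock10) and -0.112 (Maml2), and CHH -0.113 (Maml2). With 250 kb flanks CpG was -8.15 (Sema5a) and CHH 0.286 (Maml2). Against the lower flank CpG was -7.60 (Maml2), -6.48 (Sema5a) and -38.8 (Bcl11b), CHG -0.0896 (Dock10), and CHH 0.121 (Dock10, turned) and 0.241 (Maml2). Against the higher flank CpG was -4.92 (Maml2), -13.5 (Sema5a) and -32.9 (Bcl11b), CHG -0.409 (Dock10), and CHH -0.437 (Dock10) and -0.205 (Maml2). With low-CpG stretches left out CpG was -39.1 (Prox1), -3.99 (Dock10), -4.79 (Maml2), -7.22 (Sema5a) and -24.1 (Bcl11b). Stretches numbered 18 at a site limit of 20%, 46 at 50%, 60 from 2 sites and 9 from 5 sites. CHG calls numbered 56 at a background of 1% and 14 from 30 reads, and CHH calls 25 at a background of 1%. Shares over all nuclear sites are not given for these settings, so the counts of stretches and calls do not compare the windows with the genome. The place among autosomal tiles moved in 9 of 33 values. The difference of CHG near low CpG between Prox1 and Bcl11b was 0.415 to 0.628 points under 5 settings added after the data were seen.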

Other observations

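Replicate 1 listed sites in 3 of the windows. In Maml2 it had 7 CpG sites at 75.3% (68.2% to 81.5%, 174 reads), all of which were also listed in replicate 2, at 74.2% (617 reads, of which 252 at 1 site). That site, at 13422748, was at 44.0% in replicate 2 and is left out of the window levels for its depth. The other shared CpG together thus stood above 74.2% in replicate 2. The 2 levels do not show that the libraries matched site by site. At the 16 CHG sites listed in both, the levels were 0.454% in replicate 1 and 0.478% in replicate 2 (1675 reads). At 35 CHH sites they were 0.179% and 0.301% (4646 reads in replicate 2). With so many reads, both sets must include sites left out of the window levels of replicate 2 for their depth. The CHG and CHH values of these shared sites therefore do not check the window levels. In Dock10 the 4 CHG sites listed in both had no methylated read in either library.

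Sites of more than 100 reads, left out of the levels, occurred in Maml2 only. They were 1 CpG, 5 CHG and 16 CHH between positions 13422678 and 13422820 of chromosome 9. The CpG, at 13422748, was methylated in 111 of 252 reads (44.0%, 37.8% to 50.4%), below the level of the window. The CHG sites were at 0.489% (0.159% to 1.14%) and the CHH sites at 0.293% (0.1404% to 0.537%).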
